A study of Mus musculus with 6 samples.

Results

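The ErbB receptors and the growth factors that bind them were followed in the aortic valve of the mouse, from the neonatal to the adult stage. The set holds 10 genes, chosen by name: the 6 ligands Hbegf, Areg, Nrg1, Nrg2, Nrg3 and Nrg4 and the 4 receptors Egfr, Erbb2, Erbb3 and Erbb4. All 10 were found among the 46983 genes of the deposited table. Wild type C57BL/6J mice gave the valves, either at postnatal day 2 (PND2) or at an age of 4 months. There were 3 libraries per age, and each was made from total RNA of the pooled valves of 5 to 6 mice. No gene was altered and no treatment was given in either group.

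ErbB receptors are membrane tyrosine kinases that signal as pairs. Egfr binds Hbegf and Areg, Erbb3 and Erbb4 bind the neuregulins, Erbb2 has no known ligand of its own and serves as the partner of the others, and Erbb3 has little kinase activity and depends on such a partner. The ligands are made as membrane proteins, carry an EGF-like domain held together by 6 cysteines, and are released by proteases of the cell surface. In the embryonic heart, neuregulin from the endocardium signals to Erbb2 and Erbb4 of the myocardium, Erbb3 acts in the endocardial cushions, and Hbegf and Egfr limit the growth of the semilunar valves.

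Levels are given as RPKM, the reads on a gene scaled by its exonic length and by the library total, so that genes can be compared per length. Library totals ran from 23810507 to 38994657 reads, and whole reads were recovered from the RPKM values. Differences between ages are log2 fold changes (4 months minus PND2) on the log2(RPKM + 0.1) scale, from limma with Benjamini-Hochberg adjustment over all 25903 genes tested, 2-sided, and a gene was called at an adjusted p under 0.05. Adding 0.1 understates the change of genes of low RPKM. The valve interstitial markers (Vim, Col1a1, Col3a1, Postn, Dcn and Lum) summed to 5913 to 6355 RPKM at PND2 and 7612 to 9626 at 4 months. Of these 6 markers, 2 were called higher (Dcn and Lum) and 3 lower (Col1a1, Col3a1 and Postn), with a median log2 fold change of -0.12. Of all genes tested, 14.7% were called higher and 21.1% lower. Cardiomyocyte markers were also abundant, with sums of 15978 to 19534 RPKM at PND2 and 5343 to 9793 at 4 months. Smooth muscle markers (Myh11, Acta2, Tagln and Cnn1) summed to 7045 to 8127 RPKM at PND2 and 15929 to 26753 at 4 months, and all 4 were called higher. Of 5 macrophage markers, 4 were called higher and 1 lower, with sums of 122 to 148 RPKM at PND2 and 251 to 323 at 4 months. In such bulk samples, fewer cells of a type and less RNA per cell cannot be told apart.

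Nrg1 and Erbb2 fell most, Erbb4 fell by less, and Egfr rose. Of the 9 genes tested, 1 was called higher at 4 months, where 14.7% of all genes tested were called higher, and 3 were called lower, where 21.1% of all genes were. Together 4 of 9 were called, beside 35.8% of all genes tested. The median log2 fold change of the 9 genes was -0.33, beside -0.14 for all genes tested. The libraries of the ages did not overlap for 6 of the 9 genes, beside 50% of all genes tested. Nrg3 was too low to be tested.

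**Figure D1:**
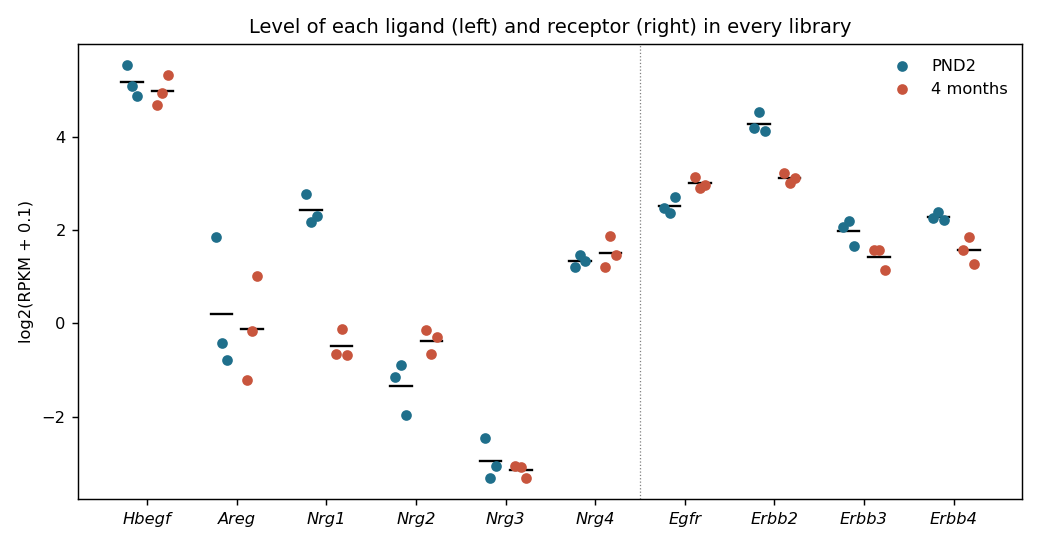
Level of each gene in every library, as log2(RPKM + 0.1), with PND2 in blue and 4 months in red and a black line at the mean of the 3 libraries. Nrg1 and Erbb2 lie lower at 4 months with no overlap, Egfr lies higher, and Hbegf is the highest gene of the set at both ages.

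The sequences that carry the exon results are shown first. Nrg1 makes many forms that differ at their start and in the EGF-like domain. All 13 coding Nrg1 transcripts of the GENCODE M21 annotation (mm10) hold a coding exon of 130 bases with the first 4 of the 6 cysteines of the domain. A second exon of 59 bases, which gives the beta form, adds the other 2. Capitals mark cysteine codons, and both exons lie on the minus strand, at chr8:31849310-31849439 and chr8:31837670-31837728.
Nrg1 shared EGF exon: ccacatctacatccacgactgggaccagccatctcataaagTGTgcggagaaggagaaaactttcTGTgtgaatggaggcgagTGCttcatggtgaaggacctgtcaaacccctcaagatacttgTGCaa
Nrg1 beta exon: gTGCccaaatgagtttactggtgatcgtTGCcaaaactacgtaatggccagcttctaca

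Erbb4 makes forms that differ in alternative coding exons just outside the membrane. The JM-a exon (chr1:68290243-68290317, 75 bases, minus strand) allows the receptor to be cut by Adam17, and the JM-b exon (chr1:68290439-68290483, 45 bases) does not. The CYT-1 exon (chr1:68043908-68043955, 48 bases) adds a site that binds PI3 kinase. Capitals mark cysteine codons in the first pair, and in CYT-1 the run of codons from a tyrosine to a methionine that makes up the PI3 kinase site.
Erbb4 JM-a exon: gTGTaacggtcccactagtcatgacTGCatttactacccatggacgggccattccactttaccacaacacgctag
Erbb4 JM-b exon: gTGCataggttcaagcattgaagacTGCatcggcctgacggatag
Erbb4 CYT-1 exon: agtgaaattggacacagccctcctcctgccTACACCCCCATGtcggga

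For Nrg4, the coding exon of 147 bases at chr9:55242061-55242207 (minus strand) is shown because it overlaps no other gene and so bears on the result for that gene. It encodes the end of the EGF-like domain and the stretch that crosses the membrane. Capitals again mark cysteine codons.
Nrg4 EGF and membrane exon: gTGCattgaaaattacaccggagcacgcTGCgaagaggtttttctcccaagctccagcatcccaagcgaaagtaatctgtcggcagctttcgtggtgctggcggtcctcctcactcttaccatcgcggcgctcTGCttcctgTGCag

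Nrg1, the neuregulin best known for its role in the developing heart, had the largest log2 fold change of the 9 genes when whole genes were counted. It held 6.74, 4.44 and 4.86 RPKM in the 3 PND2 libraries and 0.535, 0.819 and 0.526 RPKM in the 3 libraries of 4 months. Every library of 4 months lay below every PND2 library. The means were 5.35 ± 1.23 RPKM (SD, n = 3) at PND2 and 0.626 ± 0.167 RPKM at 4 months, an 8.54-fold lower level. The log2 fold change was -2.91 with a standard error of 0.27 (limma, adjusted p = 0.000356). Nrg1 was called in each of the 6 fits that left out 1 library, with log2 fold changes of -3.09 to -2.73. These values rest on 285 to 553 reads per PND2 library and 32 to 42 reads per library of 4 months.

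The reads on Nrg1 covered only a part of the deposited gene model. That model (ENSMUSG00000062991, chr8:31818028-31918203, minus strand) holds 9 exons, and its first exon is one of several alternative starts of the gene. The first exon, of 667 bases, carried 0, 0 and 1 read at PND2 and 0, 2 and 0 reads at 4 months. The shared EGF exon carried 59, 21 and 35 reads at PND2 and 3, 3 and 1 reads at 4 months. Per length this exon stood at 11.6, 5.29 and 9.20 RPKM at PND2 and at 0.618, 0.969 and 0.266 RPKM at 4 months. On this exon, which every coding form contains, the ages did not overlap either.

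The beta exon carried 21, 0 and 5 reads at PND2 and none in the 3 libraries of 4 months. A count of 0 allows up to 3 reads, and at 4 months the shared exon itself had at most 3 reads a library, so a difference in the use of the beta exon was not detectable at this depth. The exon of 24 bases that follows it had no read in any library. The last exon, which encodes most of the part inside the cell, carried 226, 147 and 149 reads at PND2 and 26, 15 and 15 reads at 4 months. Without the first exon the level of Nrg1 was 7.82 ± 1.80 RPKM at PND2 and 0.898 ± 0.210 RPKM at 4 months, or 8.71-fold lower. In the M21 annotation the gene reaches from chr8:31814551 to chr8:32884029 and has 14 further exons of coding transcripts that overlap none of the deposited exons. Reads on those exons were not analysed here.

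**Figure D2:**
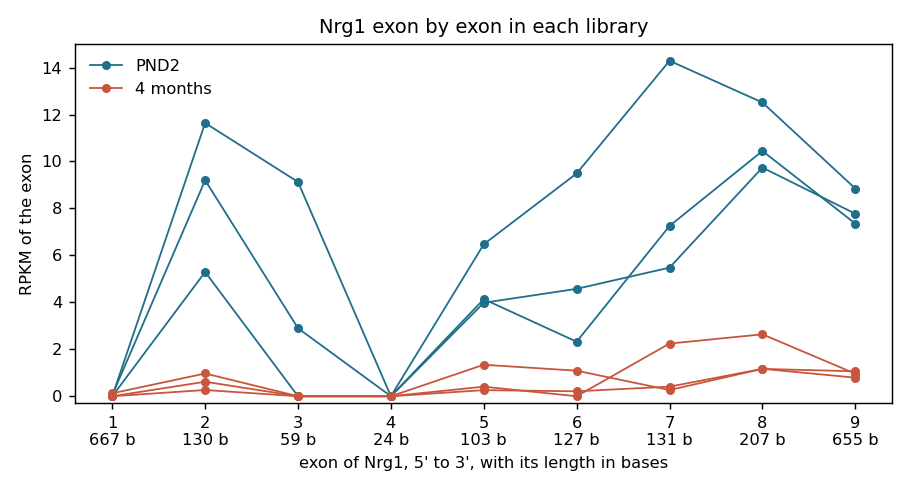
RPKM of each Nrg1 exon from the 5′ to the 3′ end, with its length in bases; each line is 1 library, PND2 in blue and 4 months in red. The first exon is at or near 0 in all 6 libraries, and from the second exon on most exons with reads lie higher at PND2, with 59, 21 and 35 reads on exon 2 at PND2 against 3, 3 and 1.

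Some cardiomyocyte markers and all endothelial markers were lower at 4 months as well. Of 8 cardiomyocyte markers 4 were called lower (Myh7, Tnnt2, Actc1 and Myl2) and none higher, beside 21.1% and 14.7% of all genes tested. Myh6, Tnni3, Ryr2 and Nppa were not called, and the ages overlapped for Tnni3, Ryr2 and Nppa. Myh6, Tnni3 and Actc1, which define these cells, were all far from 0 at both ages. All 7 endothelial markers were called lower, with sums of 404 to 557 RPKM at PND2 and 226 to 247 at 4 months. The part of these cells in the fall of Nrg1, Erbb2 and Erbb4 was not tested. The genes whose values over the 6 libraries were most like those of Nrg1, among 20027 genes with a mean of at least 1 RPKM, were Bves, Ect2 and Gm28512, with root mean square differences of 0.195, 0.202 and 0.206 on the centred log2 scale. Bves, a membrane protein of heart and skeletal muscle, held 156 to 164 RPKM at PND2 and 16.0 to 23.7 at 4 months. Ect2, an exchange factor needed for the division of the cell body, held 2.30 to 3.32 RPKM at PND2 and 0.276 to 0.561 at 4 months.

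Nrg2, the neuregulin closest to Nrg1 in sequence, was low at both ages. It held 0.350, 0.436 and 0.155 RPKM at PND2 and 0.799, 0.532 and 0.718 RPKM at 4 months. All libraries of 4 months lay above all PND2 libraries. Its log2 fold change was 0.97 with a standard error of 0.38, and limma did not call it (adjusted p = 0.0861). It was called when read counts were weighted with voom (adjusted p = 0.0461). The values rest on 14 to 42 reads per PND2 library and 39 to 92 reads per library of 4 months.

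Nrg3, a neuregulin of the nervous system that binds Erbb4, was at or near 0 in every library. It had 22, 0 and 4 reads at PND2 and 5, 3 and 0 reads at 4 months, over 6817 exonic bases. These reads came to at most 0.0828 RPKM in any library. The ages overlapped, and no fold change is given.

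Nrg4, which brown and white fat secrete and which binds Erbb4, was not called when the whole gene was counted. It held 2.21, 2.66 and 2.41 RPKM at PND2 and 2.20, 3.54 and 2.65 RPKM at 4 months. The ages overlapped, and the log2 fold change was 0.17 with a 95% interval of -0.36 to 0.71 (limma, adjusted p = 0.594). The gene (ENSMUSG00000032311, chr9:55220222-55326844, minus strand) overlaps Fbxo22, an F-box gene on the other strand, over 368 exonic bases. Fbxo22 had means of 35.7 RPKM at PND2 and 30.3 RPKM at 4 months.

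Most reads counted for Nrg4 lay on exons that overlap another gene. These 3 exons held 513, 493 and 422 reads at PND2 and 459, 400 and 423 reads at 4 months, or 78.1 to 99.8% of the reads on the gene. The last Nrg4 exon (chr9:55220222-55221408, 1187 bases) carried 353, 414 and 327 reads at PND2 and 337, 264 and 326 at 4 months. A Fbxo22 exon of only 166 bases that lies wholly inside it (chr9:55221022-55221187, plus strand) carried 283, 285 and 240 reads at PND2 and 235, 142 and 193 at 4 months. The 187 bases at the start of the Nrg4 exon, which Fbxo22 does not reach, carried 0, 5 and 5 reads at PND2 and 12, 20 and 23 at 4 months. The library kit marks strand, but whether the counting used it is not stated, so reads of the pair cannot be told apart on the shared exons.

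On the exons that overlap no other gene, Nrg4 rose between PND2 and 4 months. These exons, 18 with 3455 bases in all, carried 11, 6 and 11 reads at PND2 and 53, 132 and 66 reads at 4 months. They stood at 0.0816, 0.0569 and 0.109 RPKM at PND2 and at 0.411, 1.60 and 0.660 RPKM at 4 months. At PND2 only the library with 0.109 RPKM reached the level of the filter (0.1 RPKM in 3 libraries). Nrg4 was thus tested on these exons because of its libraries of 4 months. All libraries of 4 months were above all PND2 libraries, and the second library of 4 months was the highest. The means were 0.0825 ± 0.0260 RPKM and 0.892 ± 0.630 RPKM (SD, n = 3), a 10.8-fold higher level at 4 months, or 6.49-fold without the second library. The log2 fold change was 2.27 with a standard error of 0.49 (limma over the 23325 genes tested on such exons, adjusted p = 0.0108), where 14.5% of those genes were called higher. It was called in all 6 fits that left out 1 library, with log2 fold changes of 1.78 to 2.65 and adjusted p of 0.00995 to 0.0335. This way of counting was chosen after the data were seen. The membrane exon printed above carried 2, 0 and 1 reads at PND2 and 9, 20 and 4 reads at 4 months.

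**Figure D3:**
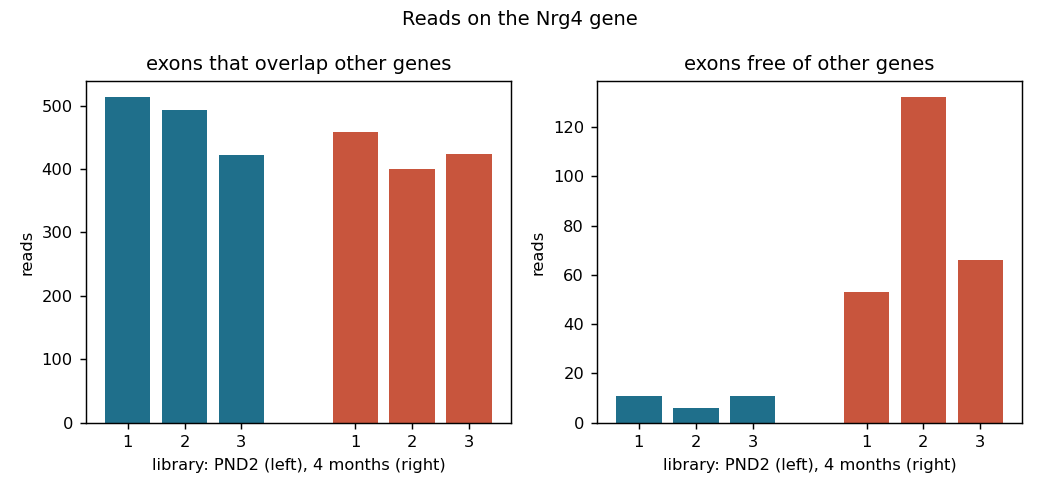
Reads per library on Nrg4 exons that overlap another gene (left panel) and on those that overlap none (right panel), with PND2 in blue and 4 months in red; the last exon has a part in both panels. The left panel lies between 400 and 513 reads with the ages overlapping, and the right panel runs from 6 to 11 reads at PND2 to 53 to 132 at 4 months.

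Of 5 adipocyte markers, 4 were called higher at 4 months and none lower, beside 14.7% and 21.1% of all genes tested. Their sum was 63.7 to 147 RPKM at PND2 and 122 to 436 RPKM at 4 months. These sums overlapped, and Fabp4, also made by endothelial cells, was high at both ages and not called (log2 fold change -0.05). Cidec and Lep, which define fat cells, were listed at 0 in all 3 PND2 libraries. The 4 called markers (Adipoq, Plin1, Cidec and Lep) held at most 0.198 RPKM at PND2. They passed the filter for testing through the libraries of 4 months. Adipoq held 0.0743, 0.0475 and 0.198 RPKM at PND2 and 34.2, 134 and 41.2 RPKM at 4 months. Its highest library was the second of 4 months, which was also the highest for Nrg4. The part of fat cells in the rise of Nrg4 was not tested.

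Hbegf, the heparin-binding ligand of Egfr and Erbb4, was the highest of the 10 genes at both ages. It held 46.6, 33.8 and 29.0 RPKM at PND2 and 25.6, 30.8 and 39.9 RPKM at 4 months. The ages overlapped. In limma the log2 fold change was -0.18 with a 95% interval of -0.69 to 0.33 (adjusted p = 0.560). Without the first PND2 library, the highest of the 6, it was 0.01.

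Areg, a ligand of Egfr, had 1 library that stood apart. It held 3.48, 0.647 and 0.478 RPKM at PND2 and 0.331, 0.795 and 1.93 RPKM at 4 months. The first PND2 library had 165 reads and the other 5 had 15 to 68. The ages overlapped, and the log2 fold change was -0.33 with a 95% interval of -2.23 to 1.57 (limma, adjusted p = 0.786). Leaving out the first PND2 library turned it to 0.49. The first PND2 library was thus the highest of the 6 for both Hbegf and Areg. Of 8 immediate early genes 7 were called higher, beside 14.7% of all genes tested. The 8 genes summed to 155 to 184 RPKM at PND2 and 523 to 768 at 4 months, while neither Hbegf nor Areg was called.

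Among the receptors, Erbb2 had the largest difference. The gene (ENSMUSG00000062312, chr11:98412470-98437716, plus strand) held 18.04, 22.9 and 17.4 RPKM at PND2 and 9.26, 7.92 and 8.59 RPKM at 4 months. Every PND2 library lay above every library of 4 months. The means were 19.4 ± 3.05 RPKM and 8.59 ± 0.672 RPKM (SD, n = 3), so the level was 2.26-fold lower. The log2 fold change was -1.16 with a standard error of 0.14 (limma, adjusted p = 0.00109), and it was -1.24 to -1.04 when 1 library was left out, called each time. The last exon shares 9 bases with Mien1 on the other strand, and the log2 fold change over exons free of other genes was also -1.16. The genes most like Erbb2 over the 6 libraries were Rab26os, Ankrd24 and Fancm, with root mean square differences of 0.0528, 0.0575 and 0.0782 on the centred log2 scale. Fancm, a helicase of the Fanconi anemia repair pathway, held 3.27 to 4.21 RPKM at PND2 and 1.48 to 1.86 RPKM at 4 months.

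Erbb4, the neuregulin receptor of the myocardium, was lower at 4 months. It held 4.67, 5.12 and 4.56 RPKM at PND2 and 2.88, 3.49 and 2.33 RPKM at 4 months. The ages did not overlap. The means were 4.78 ± 0.299 RPKM and 2.90 ± 0.583 RPKM (SD, n = 3), or 1.65-fold lower. For Erbb4 the log2 fold change was -0.72 with a standard error of 0.20 (limma, adjusted p = 0.0261). The call held in 1 of the 6 fits that left out 1 library, that without the second library of 4 months, with adjusted p of 0.0238 to 0.0820.

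Most reads on Erbb4 lay on its last exon. That exon (chr1:68032186-68040486) has 8301 bases, of which 443 are coding, and it held 72.8 to 88.6% of the reads on the gene. The whole gene has 12355 exonic bases, so most reads would lie there by length alone. Per length the last exon had means of 5.48 RPKM at PND2 and 3.63 RPKM at 4 months. On the other 28 exons the level was 2.42, 3.85 and 3.78 RPKM at PND2 and 2.07, 1.21 and 0.920 RPKM at 4 months. Every library of 4 months was below every PND2 library there, with means 2.39-fold lower, against 1.51-fold lower on the last exon. The exact permutation p of either part was 0.1, the smallest that 3 libraries against 3 can give. In a test of exon usage (limma's diffSplice) the last exon was relatively higher at 4 months by 0.61 on the log2 scale, with an unadjusted p of 0.0138 and an adjusted p of 0.528, so it was not called.

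The JM-a exon of Erbb4 carried reads and the JM-b exon did not. JM-a had 3, 11 and 2 reads at PND2 and 1, 2 and 2 reads at 4 months, and JM-b had none in any of the 6 libraries. Per length, and with 21 reads on JM-a, a count of 0 on JM-b allows it up to 19.2% of the level of the pair, for counting error only. The CYT-1 exon had 2 reads, both in the second PND2 library, while the exons on its sides, of 171 and 298 bases, had 61 and 187 reads over the 6 libraries. Both JM-b and CYT-1 are shorter than a read of 50 bases. An Erbb2 exon of 48 bases (chr11:98431717-98431764) had 262 reads and an Egfr exon of 45 bases (chr11:16887141-16887185) had 129. Both genes stood higher than Erbb4 outside the last exon. Means there at PND2 and 4 months were 20.9 and 8.93 RPKM for Erbb2 and 6.12 and 8.72 RPKM for Egfr. For Erbb4 they were 3.35 and 1.40 RPKM. How well reads map to the short Erbb4 exons was not tested. No difference between ages in the use of these Erbb4 exons was detectable at this depth.

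Erbb3, the receptor that depends on a partner kinase, was not called. The gene (ENSMUSG00000018166, chr10:128567523-128589652, minus strand) held 4.09, 4.44 and 3.07 RPKM at PND2 and 2.87, 2.88 and 2.11 RPKM at 4 months. Every library of 4 months lay below every PND2 library, but the gap between the nearest libraries was small. Its log2 fold change was -0.54 with a 95% interval of -1.07 to -0.02 (limma, adjusted p = 0.0988), and with voom weights it was called (adjusted p = 0.0469). Erbb3 is a marker of Schwann cells and their precursors. The other 7 Schwann cell markers summed to 11.97 to 29.4 RPKM at PND2 and 48.3 to 55.1 RPKM at 4 months, with 3 called higher and none lower. Of all genes tested, 14.7% were called higher and 21.1% lower. S100b, for example, rose from 5.17 to 10.02 RPKM at PND2 to 24.2 to 37.3 RPKM at 4 months. Erbb3 thus lay lower at 4 months while the sum of the other Schwann cell markers lay higher. Melanocytes share the neural crest origin of Schwann cells, and of 6 melanocyte markers 3 were called lower (Tyrp1, Pmel and Mitf, with log2 fold changes of -1.36, -1.65 and -0.46) and none higher. Their sum was 53.99 to 102 RPKM at PND2 and 33.8 to 57.5 RPKM at 4 months, which overlapped, and none of the 6 was at 0 in any library. The part of either cell type in the level of Erbb3 was not tested.

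Egfr, the receptor of Hbegf and Areg, was the receptor with a higher level at 4 months. The gene (ENSMUSG00000020122, chr11:16752203-16918158, plus strand) held 5.41, 5.05 and 6.44 RPKM at PND2 and 8.71, 7.36 and 7.70 RPKM at 4 months. The ages did not overlap. The means were 5.63 ± 0.717 RPKM and 7.92 ± 0.700 RPKM (SD, n = 3), or 1.41-fold higher. The log2 fold change was 0.49 with a standard error of 0.15 (limma, adjusted p = 0.0408). The call held in 1 of the 6 fits that left out 1 library, that without the third PND2 library, with adjusted p of 0.0449 to 0.120. The level at 4 months was 1.39-fold higher on the last exon and 1.42-fold higher on the other 29 exons.

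**Figure D4:**
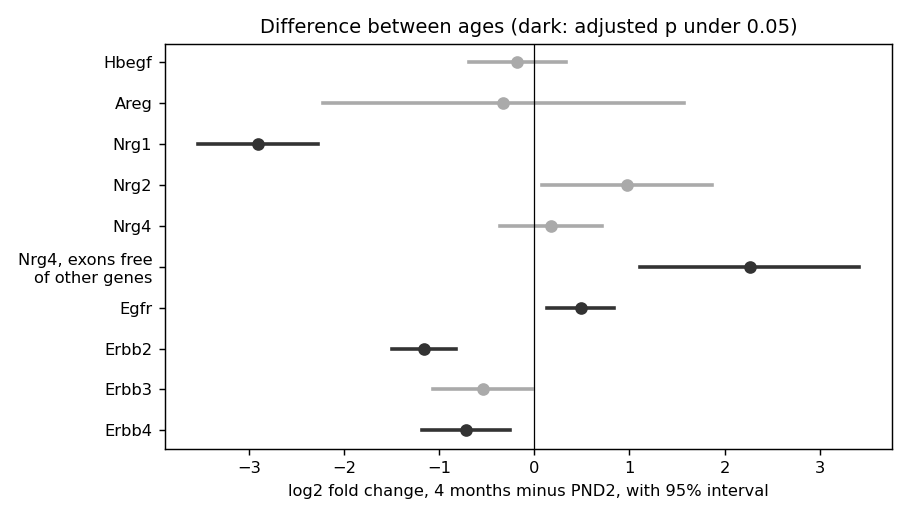
Log2 fold change of each tested gene (4 months minus PND2, horizontal axis), with its 95% interval from limma; dark marks were called at an adjusted p under 0.05. Nrg1, Erbb2 and Erbb4 lie below 0, Egfr lies above 0, and Nrg4 moves from 0.17 on the whole gene to 2.27 on exons that overlap no other gene.

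The shares of Erbb2 and Egfr in the summed RPKM of the receptors did not overlap between the ages. Shares of a sum depend on one another, so a fall of Erbb2 by itself raises the share of Egfr. The 4 receptors summed to 32.2, 37.6 and 31.4 RPKM at PND2 and to 23.7, 21.7 and 20.7 RPKM at 4 months. Erbb2 made up 56.0, 61.1 and 55.2% of that sum at PND2 and 39.0, 36.6 and 41.5% at 4 months. Egfr made up 16.8, 13.5 and 20.5% at PND2 and 36.7, 34.0 and 37.1% at 4 months. For both receptors the ages did not overlap, with an exact permutation p of 0.1, the smallest that this design allows. The shares of Erbb3 and Erbb4 overlapped between the ages, with means of 11.4 and 14.2% at PND2 and of 11.9 and 13.2% at 4 months.

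**Figure D5:**
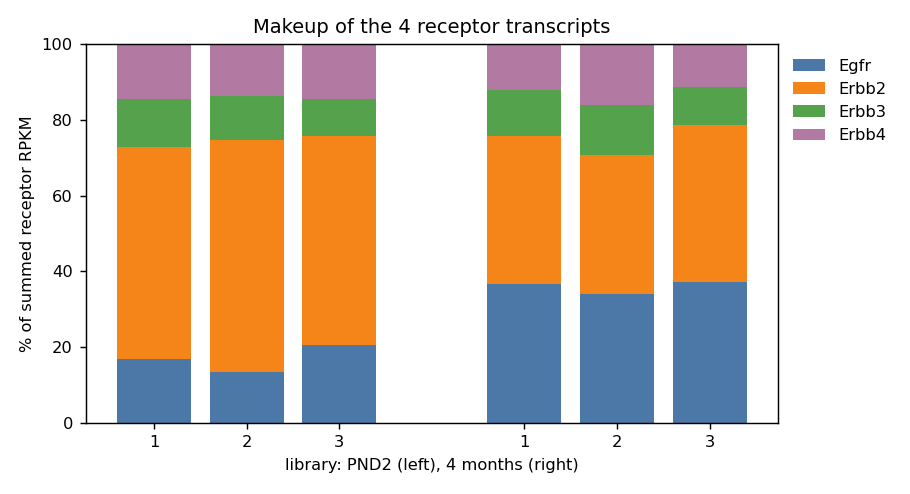
Share of each receptor in the summed RPKM of the 4 receptors (vertical axis, percent) in each library, PND2 on the left and 4 months on the right. The Erbb2 share goes from 55.2 to 61.1% at PND2 to 36.6 to 41.5% at 4 months, and the Egfr share from 13.5 to 20.5% to 34.0 to 37.1%.

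By mean RPKM over the whole gene model the order at PND2 was Hbegf, Erbb2, Egfr, Nrg1, Erbb4, Erbb3, Nrg4, Areg, Nrg2 and Nrg3. On these levels the libraries of Egfr and Nrg1, of Nrg1 and Erbb4, and of Nrg4 and Areg overlapped, so these neighbours did not differ beyond their spread. At 4 months the order was Hbegf, Erbb2, Egfr, Erbb4, Nrg4, Erbb3, Areg, Nrg2, Nrg1 and Nrg3. Erbb2 and Egfr then overlapped, as did Erbb4 with Nrg4, Nrg4 with Erbb3, Areg with Nrg2, and Nrg2 with Nrg1. Nrg1 stood between Egfr and Erbb4 at PND2 and below Nrg2 at 4 months, but its place depends on its first exon, which had almost no reads. Without that exon Nrg1 held 9.88, 6.50 and 7.09 RPKM at PND2, above every PND2 library of Egfr and Erbb4 over their whole gene models. The gap to Egfr was small, with 6.44 RPKM in its highest PND2 library. On the Egfr exons other than the last, the PND2 libraries held 5.44, 5.73 and 7.19 RPKM, which overlapped those of Nrg1. Without its first exon Nrg1 had a mean of 0.898 RPKM at 4 months, above the 0.683 RPKM of Nrg2, with libraries that still overlapped. The place of Nrg4 rests on the reads it shares with Fbxo22.

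No exon of the 10 genes was called for a change in usage between the ages. Of 222 exons listed for them 110 had enough reads to be tested with diffSplice, and 0 were called, beside 0.61% of the 227530 exons tested in all genes. At an unadjusted p under 0.05 there were 5: 2 in Egfr and 1 each in Erbb2, Erbb4 and Nrg4. The exon of smallest p was the part of the last Nrg4 exon that Fbxo22 does not reach, with an unadjusted p of 0.00689 and an adjusted p of 0.368.

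Among other ligands of the EGF family and related membrane proteins, 1 of 7 tested genes was called higher and 1 lower, with a median log2 fold change of 0.12 beside -0.14 for all genes. Thus 28.6% of this list was called, beside 35.8% of all genes tested. Tmeff1, a membrane protein with an EGF-like domain, held 13.1, 13.6 and 14.1 RPKM at PND2 and 1.40, 1.80 and 1.505 RPKM at 4 months. It was 8.69-fold lower at 4 months, or -3.05 on the log2 scale (adjusted p = 3.78e-05 in limma). The related Tmeff2 was the gene that rose, from 0.389 ± 0.191 RPKM to 1.21 ± 0.122 RPKM (SD, n = 3; limma, adjusted p = 0.0160). Ereg and Tgfa, both ligands of Egfr, were not called, with log2 fold changes of 0.72 and 0.12.

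Of 14 genes of ligand processing, all tested, 3 were called higher and 6 lower, with a median log2 fold change of -0.29. Together 64.3% were called, beside 35.8% of all genes tested. Timp3, an inhibitor of Adam17 and other metalloproteinases, rose from 129.5, 147 and 105 RPKM at PND2 to 399.7, 447 and 660.5 RPKM at 4 months. It changed by 1.96 on the log2 scale (limma, adjusted p = 0.000631). Among the proteases that release these ligands, Adam9 fell from 106 ± 5.32 RPKM to 62.7 ± 0.637 RPKM (SD, n = 3) and Adam12 fell by 1.71 on the log2 scale. Adam10, Adam15, Adam17, Adam19, Bace1 and Rhbdf2 are added after their values were seen. Adam15, another metalloproteinase of this family, rose from 33.1 ± 1.51 RPKM to 59.3 ± 9.22 RPKM (SD, n = 3; limma, adjusted p = 0.00276). Rhbdf2, which carries Adam17 to the cell surface, rose by 0.60 on the log2 scale (limma, adjusted p = 0.0169). Adam10 fell by 0.85, Adam19 fell by 1.47 and Bace1 fell by 0.47 on the log2 scale (limma, adjusted p = 0.00172, 0.00191 and 0.0124). Adam17, the main protease for Hbegf and Areg, held 15.4 to 19.1 RPKM at PND2 and 15.5 to 17.8 RPKM at 4 months and was not called (log2 fold change 0.01, 95% interval -0.28 to 0.29, adjusted p = 0.962). Ncstn, a subunit of the gamma-secretase that cuts Erbb4, fell by 0.59.

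Of 18 negative regulators of the receptors, 3 were called higher and 4 lower, with a median log2 fold change of -0.12. The share called was 38.9%, near the 35.8% of all genes tested. Spry1, Spry2 and Spry4 stand both here and in the list of genes that respond to ERK below, so these lists are not separate. Errfi1, also known as Mig6, binds the kinase domain of Egfr and Erbb2 and blocks it. It held 16.6, 16.0 and 15.2 RPKM at PND2 and 45.2, 58.1 and 70.7 RPKM at 4 months. All libraries of 4 months lay far above those of PND2, and the log2 fold change was 1.83 with a standard error of 0.16 (limma, adjusted p = 0.000297). Ptprk, a receptor phosphatase that acts on Egfr, fell from 21.0 ± 1.39 RPKM to 9.80 ± 0.402 RPKM (SD, n = 3; limma, adjusted p = 0.000401). Ptpn12, a phosphatase of ErbB and focal adhesion proteins, fell by 0.43 on the log2 scale, and Usp8, a deubiquitinase of endocytosed receptors, was not called (log2 fold change 0.07).

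Of 31 adaptors and kinases downstream, 4 were called higher and 7 lower, with a median log2 fold change of -0.01. The share called, 35.5%, was near the 35.8% of all genes tested. Akt1, the most abundant of them, fell from 132, 179 and 173 RPKM at PND2 to 101, 88.9 and 99.7 RPKM at 4 months, or by -0.73 on the log2 scale (adjusted p = 0.00592 in limma). Pik3cb, a catalytic subunit of PI3 kinase, rose from 2.81 ± 0.417 RPKM to 6.58 ± 0.544 RPKM (SD, n = 3; limma, adjusted p = 0.00223). Mapk3, which encodes ERK1, and Ptpn11, which encodes the phosphatase SHP2, were not called, with log2 fold changes of 0.07 and 0.04.

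Of 16 genes that respond to ERK, 3 were called higher and 4 lower, with a median log2 fold change of 0.07. In this list 43.8% were called, beside 35.8% of all genes tested. Fos held 6.25, 6.81 and 7.47 RPKM at PND2 and 97.2, 32.3 and 39.6 RPKM at 4 months, a difference of 2.85 on the log2 scale (adjusted p = 0.00149 in limma). Egr1 and Phlda1 were the other genes called higher, with log2 fold changes of 1.19 and 1.23. Ier3 was called lower (log2 fold change -0.64), as were Spry1 and Spry2 (-0.75 and -0.38, adjusted p = 0.0124 and 0.0437 in limma). Spry1 and Spry2 are the same genes that count among the negative regulators called lower. Ccnd1, which encodes cyclin D1, was not called (0.04). Fos and Egr1 also belong to the immediate early list given above, and the part of that response in this list was not tested.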

How the data were processed

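Per the labels and the study's methods, the authors sequenced stranded libraries of pooled aortic valves, filtered and trimmed the reads, used TopHat2 2.1.0 for alignment to mm10, and took counts per Ensembl gene and exon from easyRNASeq in R 3.2.2. They deposited RPKM per gene and per exon. Whole reads were recovered from RPKM, length and library total for 100.0% of values above 0 (tolerance 0.01 read). Genes with at least 0.1 RPKM in 3 libraries were compared with limma 3.58.1 (eBayes with a trend) in R 4.3.3, and exons with at least 10 reads in 3 libraries with voom and diffSplice. Alternatives were pseudocounts of 1 and 0.01, other filters, no trend, the study's own test, 2 other scalings, voom, a replicate block and each library left out. Counting only exons that overlap no exon of another gene, the longest of each overlapping set, was added after the data were seen. The steps were tested on simulated data. Exon sequences were read from GENCODE M21. The labels number the libraries as biological replicates, each a pool. The 10 genes and the other lists were chosen with earlier results of these data known. All 10 genes are named. From each list the 3 genes of highest mean RPKM and the 2 called genes of largest change with a mean of at least 1 RPKM are named, and other names were chosen after their values were seen. Python 3.11.15 with pandas 2.3.3, matplotlib 3.10.9 and numpy 2.4.6 served for the values and plots, and version 1.17.8 of the data.table package for reading in R. Limits from a count of 0 use 3 reads and cover counting error only.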

Additional observations from a re-analysis of the deposited data

How the results depend on the processing

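Nrg1 and Erbb2 were called lower in every alternative run. The 1 gene called higher (Egfr) became 0 in the study's own gene-wise test of unequal variances, 2 with voom on the recovered reads (with Nrg2), 2 on exons free of other genes (with Nrg4) and 0 to 1 when 1 library was left out. With a replicate block it became 0. The labels number the libraries within each age and state no pairing. Same-numbered libraries had correlations of deviations of 0.04, -0.06 and -0.16. With 3 libraries per age, such values cannot tell whether libraries of the same number were handled together. The fall of Erbb4 lost its call in the study's test (adjusted p = 0.101), with median scaling (0.0509) and with the replicate block (0.0501). Median scaling moved the median of all genes from -0.14 to -0.02, and no gene of the set changed direction with scaling. Pathway genes called higher went from 14 to 6 and called lower from 20 to 10 in the study's test. Exons called for usage went from 0 to 2, both in Nrg4, without the read filter. Log2 fold changes that turned sign, none of them called, came from leaving out 1 library: Hbegf ran from -0.35 to 0.011 (without PND2 replicate 1), Areg from -0.90 to 0.49 (without PND2 replicate 1, and 0.22 without 4 months replicate 1), and Nrg4 on the whole gene from -0.0025 (without 4 months replicate 2) to 0.33. In each such fit the age with 2 libraries has fewer samples, and other causes were not tested. Depth limits Nrg3 and the short exons of Nrg1 and Erbb4.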
